A study of Mus musculus with 4 samples.

Results

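The genes described here are the nuclear genes for mitochondrial ribosomal proteins, measured in mouse bone marrow cultures that flew on a space shuttle and in parallel cultures kept on the ground. Members were all probe sets whose single gene symbol began with Mrpl (large subunit) or Mrps (small subunit) and a number. That gave 76 genes, 47 Mrpl and 29 Mrps, of 18193 named genes on the array, through 156 of 45037 probe sets. The set was proposed from its mean on each space flight array against ground control, so values of that contrast are given as a description. The space flight group (2 arrays) and the ground control group (2 arrays) came from 1 pool of marrow from 21 adult C57BL/6 mice. All cells were cultured at 37 °C with 1.5 µg/ml M-CSF, a cytokine under which marrow progenitors become macrophages. Both groups were held in glass barrels, given fresh medium on culture day 6 and lysed on culture day 15, the same as flight day 14. Each array held RNA of 2 barrels from that 1 marrow pool, so the spread between arrays covers cultures and hybridisations and not animals. Each group had 4 such RNA pools, of which 2 were put on arrays.

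Mitochondria carry their own ribosomes, which translate the few membrane proteins of the respiratory chain that are encoded in mitochondrial DNA. The small subunit holds the messenger RNA and decodes it, and the large subunit joins the amino acids and passes the new chain towards the inner membrane. All of the proteins are encoded in the nucleus and imported. Some descend from the bacterial ribosome and others were added during the evolution of mitochondria. Myeloid cells that are dividing or maturing need mitochondrial translation to build their oxidative phosphorylation complexes.

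The RNA was degraded, with an RNA integrity number of 3 for each pool. For Gapdh the probe set at the 3' end was brighter than the one at the 5' end by a ratio of 4.09 on space flight array 1 and 15.2 on space flight array 2, while in ground control the ratios were 4.13 for array 1 and 3.33 for array 2. The matching Actb ratio read 3.08 for space flight array 1 and 4.91 for space flight array 2. In ground control it was lower, at 2.30 (array 1) and 2.84 (array 2). The groups thus lay apart in the Actb ratio and overlapped in the Gapdh ratio. Of 12 macrophage markers, 12 were measured, with a median difference of −0.40. Of these, 9 were lower on both space flight arrays than on both ground control arrays (22.5% of all measured genes were). Their summed deposited intensity overlapped between the groups, with 142654 and 190004 in space flight, against 168216 and 183682 in ground control. Of 11 neutrophil markers on the array 10 were measured, and 10 of 10 were higher on both space flight arrays (23.0% of all measured genes were). The summed deposited intensity of the neutrophil markers was 72239 and 139877 on the space flight arrays, against 36286 and 42214 on the ground control arrays. Erythroid markers, 7 measured of 8, had sums of 6601 and 13261 on the space flight arrays, against 1547 and 3418 on the ground control arrays. The brightest was Slc4a1, with log2 levels of 12.42 and 13.39 in space flight, against 10.05 and 11.43 in ground control. Its probe set is of a class that may bind other transcripts too. Of the 7, 6 were higher on both space flight arrays (23.0% of all measured genes were). Of these 6, Ermap counted as measured only through its space flight values. Its ground control mean was 5.73, under the log2 limit of 6.40 that the mean of a measured gene had to reach. Gata1 was lower, at −0.42 ± 0.52 (SE), with overlapping groups. No marker of the 7 cell type lists was at 0 on any array. In these bulk samples fewer cells of a type and less RNA per cell cannot be told apart, and the part of cell makeup and RNA quality in the values below was not tested.

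Most mitochondrial ribosomal protein genes had slightly higher values in the flown cultures (57 of 76, but 39 of 76 with each array shifted to 1 median), and none passed the test. That shift moves all genes: 51.3% of members and 36.9% of all measured genes then lay above 0. All 76 were measured, meaning that the mean normalized log2 intensity of their brightest probe set reached 6.40, the median of all probe sets. No member was measured only through its space flight values, since 0 of the 76 had a ground control mean under that limit. Of the 76 genes 57 had a space flight minus ground control difference above 0 and 19 below (51.2% of 11141 measured genes were above 0 and 48.8% below). The median difference was 0.22 on the log2 scale, where that of all measured genes was 0.02. The middle portion of the members, between the lower and upper quartiles, ran from 0.01 to 0.45, and the whole range from −0.43 to 1.09. In limma's test across all measured genes 0 of the 76 passed an adjusted p of 0.05 (0.0628% of all measured genes did, 0.0449% higher and 0.0180% lower), and the smallest adjusted p among members was 0.116. At an unadjusted p under 0.05 there were 6 higher members (6.88% of measured genes were higher at that limit) and 0 lower (7.32%). Both space flight values lay above both ground control values for 27 members, or 35.5% (23.0% of measured genes), and below them for 3 members, or 3.95% (22.5%). The other 46 members had groups that overlapped, and 45.5% of measured genes had groups that lay apart in either direction. The members' values chose the set, so nothing is read from these shares.

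**Figure D1:**
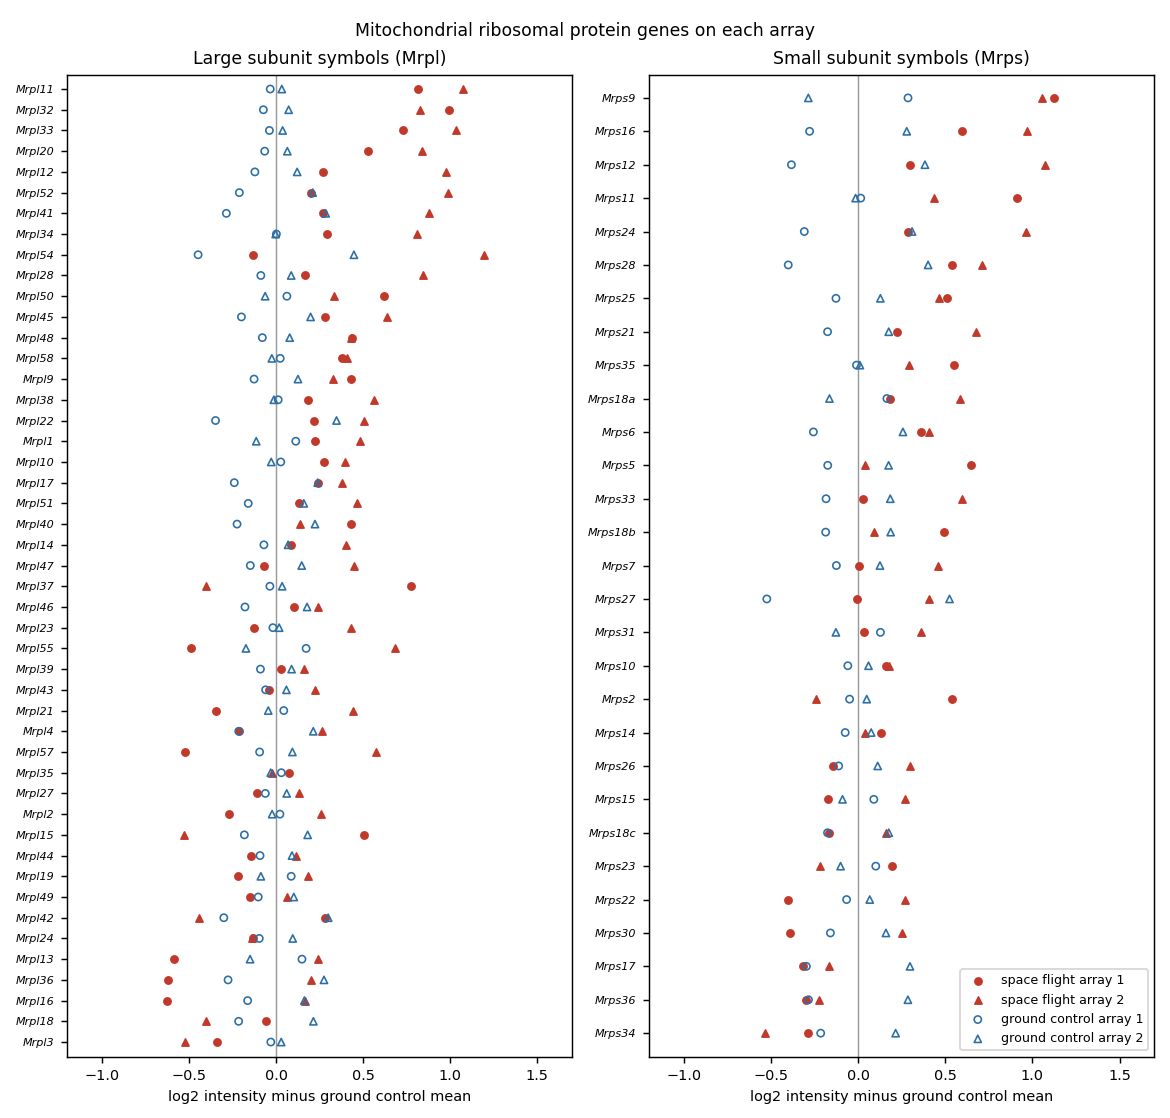
Each row is 1 gene and each point 1 array, as normalized log2 intensity minus the mean of the 2 ground control arrays; filled red marks are space flight, open blue marks ground control. In the top rows the filled marks lie right of 0, most genes have groups that overlap, and Mrpl3, Mrpl24 and Mrps34 near the bottom have both filled marks left of both open marks.

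**Figure D2:**
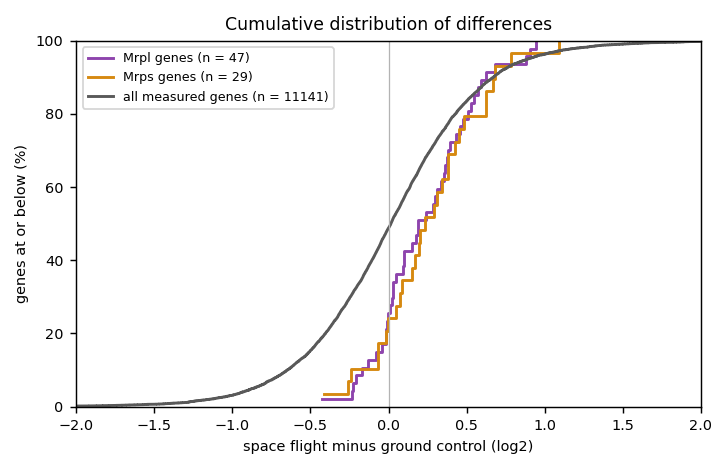
Cumulative share of genes (y axis, percent) at or below each space flight minus ground control difference (x axis, log2) for 47 Mrpl genes, 29 Mrps genes and 11141 measured genes. At 0 both member curves lie below the curve of all genes, with 12 Mrpl and 7 Mrps genes to the left of 0; with each array shifted to 1 median 39 of the 76 members (51.3%) and 36.9% of all measured genes lie above 0.

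The subunits were alike in size of difference. The 47 Mrpl genes had a median difference of 0.19, with 35 above 0 and 12 below, and the 29 Mrps genes had 0.23, with 22 above 0 and 7 below. On space flight array 1 the median distance from the ground control mean was 0.13 for Mrpl and 0.18 for Mrps genes, and on array 2 it was 0.40 and 0.30. The gap between the subunit medians, Mrpl minus Mrps, was −0.04, and its sign turned without space flight array 1 (0.10). For scale, the gap between the subunits' median levels had an SD of 0.07 between arrays of a group. Some symbols do not name the subunit the protein sits in: in the mammalian mitoribosome, Mrps18a and Mrps30 belong to the large subunit, and Mrps36 has been reassigned to the alpha-ketoglutarate dehydrogenase complex. With subunits taken by structure, the 49 large subunit genes had a median of 0.19 and the 26 small subunit genes 0.26. Of the members, 47 have a homologue in the bacterial ribosome and 29 do not. Their medians were 0.24 and 0.20. In limma's test, 6 of the 47 and 0 of the 29 were higher at an unadjusted p under 0.05 (6.88% of measured genes). The members' values chose the set, so nothing is read from this split.

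The members also leaned to one side between replicates, though not gene by gene: across the 76 genes, which share the same arrays, the gap between the space flight arrays and the gap between the ground control arrays correlated at 0.08 (Pearson's r). Of the 76 members, 54 were higher on space flight array 2 than on space flight array 1, or 71.1% (51.9% of measured genes), with a median gap of 0.27. On the ground, 58 were higher on array 2 than on array 1, or 76.3% (51.8% of measured genes), with a median gap of 0.19. The median level of the members in space flight was 10.60 on array 1 and 10.70 on array 2, and in ground control 10.28 on array 1 and 10.58 on array 2. Space flight array 1 and ground control array 2 thus had nearly the same member level. The median difference between the groups, 0.22, was of the size of these gaps between replicates. All measured genes had gaps of 0.03 between the space flight arrays and 0.02 between the ground control arrays.

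**Figure D3:**
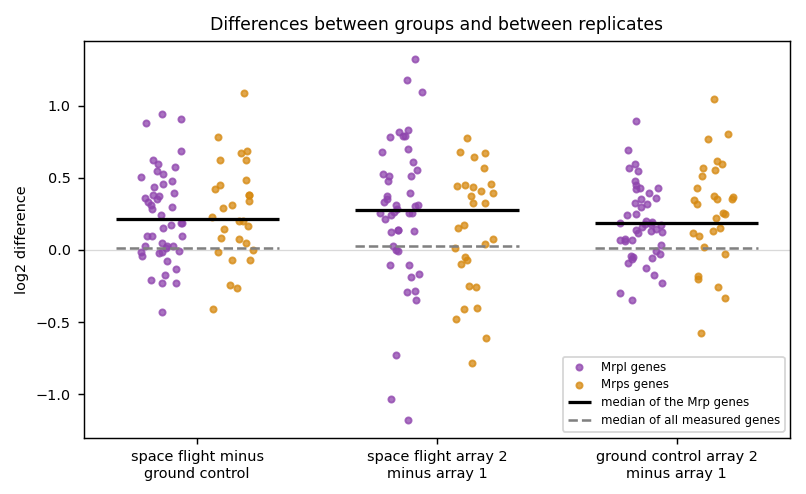
Each point is 1 gene; the columns give the log2 difference between the groups, between the 2 space flight arrays and between the 2 ground control arrays. Black lines are the medians of the 76 members (0.22, 0.27 and 0.19) and dashed lines those of all measured genes (0.02, 0.03 and 0.02); with each array shifted to 1 median the members' difference between the groups is 0.02, where that of all genes is −0.16.

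Among small subunit genes Mrps9, a protein of the subunit's head, had the highest difference of all members. Its level was 10.42 and 10.35 on the space flight arrays, against 9.58 and 9.01 on the ground control arrays. The groups did not overlap, and the 2 ground control arrays lay further apart than the 2 space flight arrays. The difference was 1.09 ± 0.31 (SE, n = 2 arrays per group; limma adjusted p = 0.153), a 2.13-fold ratio. Its 3 other measured probe sets gave 0.49, 0.41 and −0.42, so they do not share a direction. Mrps16, in which mutations cause a fatal infantile disease in humans, had 10.72 and 11.10 in space flight, against 9.85 and 10.41 in ground control. Its difference was 0.78 ± 0.30 (SE), and the groups lay apart. Mrps12, the protein next to the decoding centre, had 10.41 and 11.18 in space flight, against 9.73 and 10.50 in ground control. Here the groups overlapped, with array 2 higher than array 1 in both, and the difference was 0.68 ± 0.35 (SE). Mrps12 was read by a probe set whose class, by the maker's naming, may bind other transcripts too. Mrps11, a protein of the platform that faces the large subunit, had 9.10 and 8.62 in space flight, against 8.20 and 8.17 in ground control. Its groups lay apart, with a difference of 0.67 ± 0.34 (SE).

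Large subunit genes with high differences included Mrpl11, which forms the base of the stalk where translation factors dock. Mrpl11 had 12.08 and 12.34 in space flight, against 11.23 and 11.30 in ground control. The groups were well apart, and the difference was 0.94 ± 0.23 (SE; limma adjusted p = 0.116), a 1.92-fold ratio. That probe set can also bind other transcripts. The 2 other measured probe sets of Mrpl11 gave 0.38 and 0.66, each with both space flight values above both ground control values. Mrpl32, a precursor that a protease of the inner membrane must cut before it joins the ribosome, had 10.56 and 10.40 in space flight, against 9.50 and 9.65 in ground control. Its difference was 0.91 ± 0.28 (SE), read by 1 probe set, with no overlap of the groups. Mrpl33 had 10.75 and 11.05 in space flight, against 9.98 and 10.06 in ground control, a difference of 0.88 ± 0.27 (SE). Its groups also lay apart. Mrpl20, whose bacterial homologue binds ribosomal RNA early in assembly, had 11.15 and 11.47 in space flight, against 10.56 and 10.69 in ground control. The difference was 0.68 ± 0.26 (SE), again without overlap.

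The stalk protein Mrpl12, which also binds the mitochondrial RNA polymerase, had 11.30 and 12.01 in space flight, against 10.91 and 11.15 in ground control, and was named after its values were seen. Its difference was 0.62 ± 0.28 (SE), with the larger part on space flight array 2. Mrpl10, which anchors Mrpl12 in the stalk, stood at 0.33 ± 0.29 (SE). Mrpl10 was also named after its values were seen.

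At the other end stood Mrpl3, a protein close to the site of peptide bond formation. Mrpl3 had 10.41 and 10.23 in space flight, against 10.72 and 10.78 in ground control. Both space flight values were lower, and the difference was −0.43 ± 0.26 (SE; limma adjusted p = 0.496). Of its 2 other measured probe sets, one gave −0.32 with the groups apart and a dimmer one 0.19. Mrps34, a small subunit protein with no bacterial homologue, had 9.68 and 9.43 in space flight, against 9.75 and 10.18 in ground control. Its groups were separated by less than 0.1 on the log2 scale, and the difference was −0.41 ± 0.30 (SE). Another probe set, shared between Mrps34 and its neighbour Nme3, gave 0.16 and was not counted. Mrpl24 was the other member with both space flight values lower, at −0.13 ± 0.21 (SE). Mrps36, Mrps17, Mrpl18, Mrpl16, Mrpl36 and Mrpl13 completed the lowest 8, between −0.26 and −0.17, and their groups overlapped.

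The probe sets with the brightest signal among Mrpl genes were those of Mrpl51, Mrpl41 and Mrpl39, all proteins with no bacterial homologue, and among Mrps genes those of Mrps14, Mrps6 and Mrps18c. Mrpl41 had 12.46 and 13.07 in space flight, against 11.91 and 12.48 in ground control, a difference of 0.57 ± 0.27 (SE). Its groups overlapped narrowly. Mrps6 had 12.46 and 12.50 in space flight, against 11.84 and 12.36 in ground control, with a difference of 0.38 ± 0.23 (SE) and no overlap. Mrpl51 stood at 0.30 ± 0.20, Mrpl39 at 0.10 ± 0.20 and Mrps14 at 0.08 ± 0.18 (SE), each with overlapping groups.

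Mrps18a, Mrps18b and Mrps18c descend from a single bacterial protein and occupy different sites, Mrps18a in the large subunit and the other pair in the small one. Mrps18a had 10.83 and 11.23 in space flight, against 10.81 and 10.49 in ground control, a difference of 0.38 ± 0.27 (SE). Mrps18b had 11.42 and 11.02 in space flight, against 10.74 and 11.11 in ground control, a difference of 0.29 ± 0.27 (SE). Mrps18c had 11.36 and 11.68 in space flight, against 11.34 and 11.70 in ground control, a difference of −0.0026 ± 0.25 (SE). The groups overlapped for Mrps18b and Mrps18c.

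A few members have roles beyond the ribosome's core. Mrpl58, a peptidyl-tRNA hydrolase that frees stalled ribosomes, had 10.78 and 10.81 in space flight, against 10.43 and 10.38 in ground control, a difference of 0.39 ± 0.26 (SE). Mrpl45, which fixes the ribosome to the inner membrane, had 10.21 and 10.56 in space flight, against 9.73 and 10.13 in ground control, a difference of 0.46 ± 0.29 (SE). For both genes the groups lay apart. Mrpl44, which resembles ribonuclease III enzymes, stood at −0.02 ± 0.23 (SE), with overlapping groups, and its measured probe sets ran from −0.48 to 0.29. These 3 genes were named for their roles after their values were seen.

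Where several probe sets read 1 gene, they often did not point the same way. Of the 156 member probe sets 129 were measured, 88 of them above 0 and 41 below, with a median of 0.19. Of the 30 genes with several measured probe sets, 13 had all on 1 side of 0 and 17 had some on each side. The gap between them was over 0.5 for 11 of those 17 genes: Mrpl13, Mrpl15, Mrpl28, Mrpl3, Mrpl38, Mrpl44, Mrpl48, Mrpl50, Mrps25, Mrps5 and Mrps9. The widest gap was in Mrpl50, whose probe sets gave 0.48 and −1.29. The lower of these read 8.65 and 5.88 in space flight, against 8.69 and 8.42 in ground control, so space flight array 2 alone was low. In Mrpl15, of 7 measured probe sets the highest gave 0.65 and the lowest −0.60. Mrpl19 had all 3 measured probe sets below 0, from −1.10 to −0.02, and the lowest again rested on space flight array 2, with 8.22 and 4.66 in space flight, against 7.50 and 7.57 in ground control. All measured probe sets of Mrpl1, Mrpl9, Mrpl11, Mrpl21, Mrpl27, Mrpl34, Mrpl41, Mrpl51, Mrpl52, Mrpl57, Mrps6 and Mrps24 lay above 0. Among them Mrpl52 had 0.59, 0.87 and 0.58, Mrpl34 had 0.55 and 1.00, and Mrpl27 had 0.01 and 0.06. Using the mean of all probe sets of a gene, the Mrpl median fell to 0.13, while that of Mrps genes stayed at 0.23. Mrpl30 and Mrpl53 were read only by probe sets that also name another gene and were not members. Their brightest such probe sets gave −0.15 and 0.47.

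Start-site windows in RefSeq (assembly GRCm38.p6) cover 250 bases before to 50 bases after the start. Of the 76 members 67 were matched by gene identifier, with 73 windows. Letters known from factors of mitochondrial genes were searched on both strands. CCGGAAG, bound by ETS factors such as the nuclear respiratory factor Gabpa, was in 34.2% of the 73 member windows and in 8.86% of all 32851 windows. CGCATGC, the core of the Nrf1 motif, was in 11.0% and 3.58%, and AAGATGG, part of the Yy1 motif, in 17.8% and 6.34%. CCAATC (NF-Y) was in 20.5% of member windows and 16.1% of all windows, and CACGTG (E-box) in 9.59% and 7.15%. Of all windows 21263 belong to protein-coding genes, and in these the shares were 11.6% for the ETS letters, 4.44% for the Nrf1 core, 6.24% for the Yy1 letters, 18.2% for NF-Y and 7.84% for the E-box. The Nrf1 core is nearly its own reverse complement, so 1 site can be read on both strands, and the other motifs do not overlap each other in the windows printed. Member windows overlapped the window of another gene on the opposite strand in 34.2%, against 10.8% of all windows. For this overlap the share among windows of protein-coding genes was not computed.

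**Figure D4:**
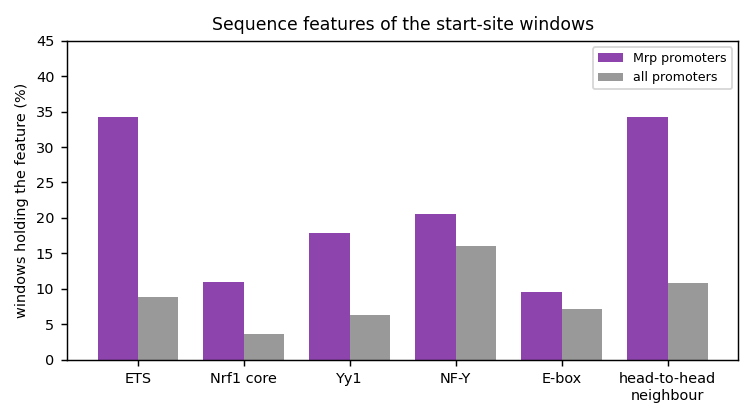
Bars give the percent of start-site windows that hold each motif on either strand, or that overlap a window of another gene on the opposite strand, for 73 windows of Mrp genes and 32851 windows of all genes. The ETS bar reads 34.2% for Mrp genes against 8.86% for all.

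Windows of 4 members that hold these letters follow, chosen from the highest 8 and the lowest member, together with the window shared by Mrps11 and Mrpl46. Capitals mark motif letters, on either strand, and each window ends 30 bases after a gene start. Mrps12 lies at chr7:28741792-28741997 on the minus strand, with the start of Sars2, which charges mitochondrial serine tRNA, 147 bases away on the opposite strand, and shows CCGGAAG once and CCAATC in 3 places. Mrpl33 lies at chr5:31613701-31613980 on the plus strand and shows CGCATGC and CCGGAAG side by side. Mrpl32 lies at chr13:14613008-14613271 on the minus strand, 205 bases from the start of the proteasome gene Psma2, and shows 3 stretches with the Nrf1 core and 1 NF-Y motif. Mrpl3 lies at chr9:105053018-105053297 on the plus strand and shows CCGGAAG once. The window of Mrps11 on the plus strand at chr7:78783060-78783160 also holds the start of Mrpl46, 42 bases away on the minus strand, and shows none of the motifs.
Mrps12: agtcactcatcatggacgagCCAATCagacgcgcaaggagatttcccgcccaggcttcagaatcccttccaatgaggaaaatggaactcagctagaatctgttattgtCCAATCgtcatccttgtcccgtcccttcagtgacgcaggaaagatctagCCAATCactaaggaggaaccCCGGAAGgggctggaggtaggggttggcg
Mrpl33: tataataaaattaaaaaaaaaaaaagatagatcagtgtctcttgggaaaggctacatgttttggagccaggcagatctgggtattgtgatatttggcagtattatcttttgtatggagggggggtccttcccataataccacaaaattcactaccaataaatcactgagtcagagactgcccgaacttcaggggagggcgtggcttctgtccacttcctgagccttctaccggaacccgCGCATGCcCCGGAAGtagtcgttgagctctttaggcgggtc
Mrpl32: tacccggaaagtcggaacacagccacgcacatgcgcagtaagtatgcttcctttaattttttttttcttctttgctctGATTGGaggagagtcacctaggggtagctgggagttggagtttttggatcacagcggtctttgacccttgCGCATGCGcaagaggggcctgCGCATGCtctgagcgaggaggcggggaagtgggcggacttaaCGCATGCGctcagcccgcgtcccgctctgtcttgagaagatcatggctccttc
Mrpl3: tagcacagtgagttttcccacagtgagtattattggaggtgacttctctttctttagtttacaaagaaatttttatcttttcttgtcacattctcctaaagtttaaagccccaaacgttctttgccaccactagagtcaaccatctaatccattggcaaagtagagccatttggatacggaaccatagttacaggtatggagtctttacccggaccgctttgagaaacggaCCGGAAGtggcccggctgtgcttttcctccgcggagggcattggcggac
Mrps11 and Mrpl46: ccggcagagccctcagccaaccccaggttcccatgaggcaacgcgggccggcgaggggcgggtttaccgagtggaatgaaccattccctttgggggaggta

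The members with a neighbour that starts head to head numbered 23, of which 17 had a measured neighbour. In 12 of these 17 the member and its neighbour had differences of the same sign. The share among neighbours of other genes was not computed, so nothing is read from this count. Mrps11 and Mrpl46, whose starts are printed above, are neighbours of each other and count as 2 of the 12. Mrps11 stood at 0.67 ± 0.34 and Mrpl46 at 0.17 ± 0.28 (SE), the groups of Mrpl46 overlapping. Mrpl32 stood at 0.91 ± 0.28 while its neighbour Psma2, a proteasome subunit, stood at −0.12 ± 0.18 (SE). Mrpl43 stood at 0.09 ± 0.24, and its neighbour Twnk, the helicase that unwinds mitochondrial DNA, at 0.46 ± 0.33 (SE).

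Other genes of mitochondrial translation were taken from lists, and 0 of the 64 measured passed limma's test over all genes. Mitoribosomal proteins with other kinds of symbol, 4 measured of 6 listed, had a median of 0.35 (0.10 with each array shifted to 1 median, where the median of all measured genes was −0.16). The list held Ict1, an older symbol of Mrpl58, which was counted among the members. Among them Gadd45gip1, a large subunit protein, stood at 0.42 ± 0.33 and the GTP-binding small subunit protein Dap3 at 0.35 ± 0.29, and Ptcd3 was lowest at −0.16 ± 0.33 (SE). Assembly factors of the mitoribosome, 23 measured of 23, had a median of 0.12 (−0.12 with each array shifted to 1 median), with 4 higher and 1 lower at an unadjusted p under 0.05 (6.88% and 7.32% of all measured genes). The pseudouridine synthase gene Trub2 was highest, with 11.14 and 12.15 in space flight, against 9.97 and 10.42 in ground control, a difference of 1.45 ± 0.35 (SE; limma adjusted p = 0.115). Trub2 was read by a probe set whose class may bind other transcripts too. Rpusd3, another pseudouridine synthase gene, was lowest, with 5.56 and 5.55 in space flight, against 7.55 and 7.10 in ground control, a difference of −1.77 ± 0.54 (SE; limma adjusted p = 0.178). The groups of both genes lay apart, and both space flight values of Rpusd3 were under the limit of 6.40.

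Translation factors load tRNAs and move the ribosome along the messenger. The 13 measured of 16 listed had a median of −0.36 (−0.60 with that shift), with 5 above 0 and 8 below, and 6 had both space flight values below both ground control values (22.5% of measured genes). Tsfm, the exchange factor of the elongation factor Tufm, was highest at 0.53 ± 0.49, and Mtfmt, which formylates the initiator tRNA, lowest at −0.96 ± 0.49 (SE). The elongation factor Gfm1 stood at −0.60 ± 0.28 (SE), with 10.48 and 10.22 in space flight, against 10.75 and 11.15 in ground control. Tufm stood at 0.32 ± 0.28 (SE), with 10.16 and 10.27 in space flight, against 10.00 and 9.79 in ground control. For both genes the groups lay apart, and both probe sets are of classes that may bind other transcripts too. Neither gene was the highest or lowest of its list. Mitochondrial tRNA synthetases, 13 measured of 17 listed, had a median of −0.12 (−0.25 with that shift), from Cars2 at 0.25 ± 0.35 to Vars2 at −1.03 ± 0.60 (SE). Genes that transcribe or copy mitochondrial DNA, 10 of 10, also had a median of −0.12 (−0.34 with that shift), with Mterf1a highest at 1.00 ± 0.34 and Mterf2 lowest at −0.43 ± 0.52 (SE). Of the mitochondrial DNA's own genes only ND5, a subunit of respiratory complex I, was named on the array. ND5 had 12.46 and 14.51 in space flight, against 12.86 and 13.53 in ground control, so the space flight arrays lay on either side of the ground control arrays. No difference between lists was tested.

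**Figure D5:**
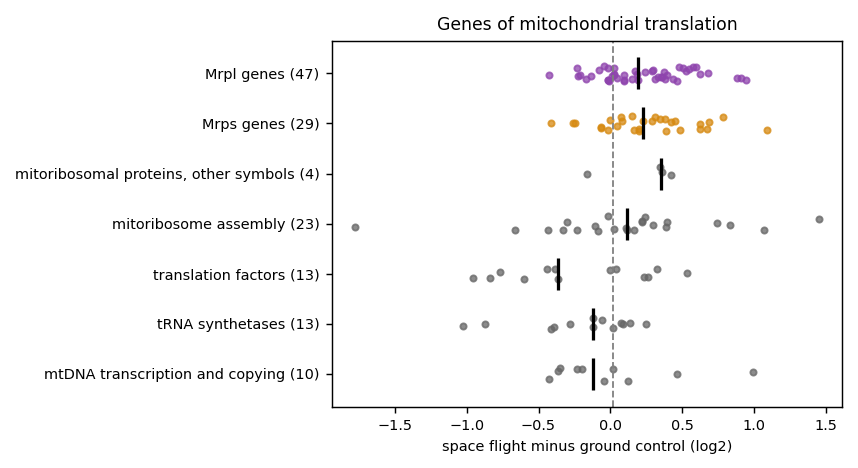
Each point is 1 measured gene, placed by its space flight minus ground control difference (log2), in 7 groups of mitochondrial translation genes with the number of genes in brackets. Black bars are list medians, from 0.35 for mitoribosomal proteins with other symbols to −0.36 for translation factors, and the dashed line is the median of all measured genes (0.02); with each array shifted to 1 median the assembly genes' median is −0.12 and that of all measured genes −0.16.

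The number of members that passed the test differed between fits that left out 1 array. Without space flight array 1, 10 members passed, or 13.2% (9.69% of measured genes), all of them higher: Mrpl11, Mrpl12, Mrpl33, Mrpl41, Mrpl52, Mrpl54, Mrps9, Mrps12, Mrps16 and Mrps24. Without space flight array 2, Mrps9 alone passed, or 1.32% of members (6.65% of measured genes). Without ground control array 1 or 2, 0 members passed (0.0628% and 0.368% of measured genes). In the fits without 1 space flight array, the single space flight array was given the spread of the ground control arrays. The moderated degrees of freedom were then 29.0 and 28.2 in place of 10.4. In the fits without 1 ground control array, the spread was that of the space flight arrays, with 33.1 and 32.5. With the replicate number as a block 2 members passed, Mrpl11 and Mrps9, or 2.63% (3.89% of measured genes). With each array shifted to 1 median in place of quantile normalization, the median of all measured genes moved to −0.16, and 39 members lay above 0 and 37 below. Relative to that shifted median, the members stood 0.18 higher, close to the 0.20 of quantile normalization.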

How the data were processed

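Values were the deposited intensity of each probe set, linear in scale, for 45101 probe sets, 64 of them controls. GCOS is named in the submitters' processing notes, with its version not stated, and the summarising algorithm is not given in the sources used here. The deposited intensity values have the same 2% trimmed mean on each array, as a global scaling gives. The number of arrays limits the precision: with 2 per group the smallest two-sided p of an exact permutation test is 0.333.

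In R 4.3.3, log2(intensity + 16) was quantile normalized over the 45037 other probe sets, because array medians differed by 0.385, above a tolerance of 0.1. Fold changes on this scale are understated for dim genes. Each gene was represented by its brightest probe set with 1 symbol, and genes whose mean reached 6.40 were tested. The groups were compared with limma 3.58.1 (lmFit, eBayes with intensity trend, two-sided, Benjamini-Hochberg over all 11141 measured genes, threshold 0.05). Simulated data on which the procedure was tested had noise independent between genes, so they did not cover shifts that genes share on an array. Errors are limma standard errors. For 76 of 76 members the gene identifier was found in RefSeq, with 0 symbols changed.

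Members and lists were chosen with earlier results of these data known. Named members were the 8 highest and 8 lowest differences, the 3 brightest of each subunit, the Mrps18 paralogues, and genes whose measured probe sets lay on opposite sides of 0 with a gap over 0.5, and per list the highest and lowest gene. Among list genes, Dap3, Gfm1 and Tufm were named outside these rules, and Twnk as a neighbour of Mrpl43. ND5 was matched by gene identifier. Marker lists of B cells, T and NK cells, megakaryocytes and mast cells, basophils and eosinophils had 2, 2, 4 and 1 measured genes, with median differences of 0.58, −0.01, 0.62 and 1.34. Alternatives covered the scaling, the pseudocount, the filter on dim genes, the probe set rule, the intensity trend, each array left out and the replicate number as a block.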

Additional observations from a re-analysis of the deposited data

How the results depend on the processing

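The 8 highest members had a difference above 0 in each of the 15 alternatives that gave a value. Mrps12 had none without _s_at or _x_at probe sets and Mrps11 none with the filter at the upper quartile. Among the lowest members, 6 of 8 changed sign in at least 1 alternative. Of the 32 named members 15 changed sign somewhere, in 23 of 478 values. The count of members above 0, an alternative chosen after seeing the data, was 57, and ran from 39 to 60 over the scalings, filters and probe set rules and from 48 to 64 with 1 array left out. With 1 array left out the Mrpl median ran from 0.081 to 0.40, the Mrps median from 0.13 to 0.36 and Mrpl minus Mrps from −0.051 to 0.098. In the same fits with 1 array left out, 0 to 10 higher members and 0 lower ones passed the threshold, and over all measured genes 6 to 470 higher and 1 to 610 lower. With each array shifted to 1 median the Mrpl median was 0.0070 and the Mrps median 0.032, where that of all measured genes was −0.16.

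Over all measured genes, 5 were higher and 2 lower. There were 12 and 4 without further normalization, 16 and 5 with cyclic loess, 16 and 12 with a filter at the upper quartile, 16 and 9 without _s_at or _x_at probe sets, and 6 and 6 with a pseudocount of 64. There were 0 and 0 with a shift to 1 median, no filter on dim genes, the mean of all probe sets or no intensity trend. The labels do not say that replicate numbers pair arrays, and the deviations of same-numbered arrays correlated at 0.06 over genes. With the replicate number as a block, 220 genes were higher and 213 lower, with 2 members, Mrpl11 and Mrps9, among the higher. The cause of these changes was not tested. The number of arrays, 2 a group, limits the precision, and the median standard error of a single member's difference was 0.29.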
